A study of Mus musculus with 4 samples.

Results

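The genes described here are 6 metabotropic glutamate receptor genes, Grm2, Grm3, Grm4, Grm5, Grm7 and Grm8, picked by gene name from the 56748 genes in the count tables of single nuclei from mouse hippocampus. Metabotropic glutamate receptors are G protein-coupled receptors that adjust transmission at glutamate synapses. Grm5 belongs to group I, which couples to Gq, is mostly postsynaptic and raises calcium through phospholipase C. Grm2 and Grm3 form group II, and Grm4, Grm7 and Grm8 belong to group III. Both of these groups couple to Gi/o, lower adenylyl cyclase activity and often sit on nerve endings, where they limit release, and Grm3 is also well known from glia.

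The study asked what repeated social defeat (RSD) does to hippocampal cells, and whether microglia or the interleukin-1 receptor of neurons take part. Nuclei came from 8 pools of 3 male mice, with 1 pool per condition. In the diet experiment C57BL/6 mice, bought at 5 to 7 weeks of age, received AIN-76A chow without drug (Control-Vehicle, Stress-Vehicle) or with the CSF1R antagonist PLX5622 at 1200 mg/kg for 7 days before RSD, which depletes microglia (Control-PLX5622, Stress-PLX5622). In the genotype experiment IL-1R1+/+ mice without Cre (Con-IL-1R1+/+, Stress-IL-1R1+/+) were set beside mice that lacked Il1r1 in cells of the Vglut2 (Slc17a6) Cre lineage (Con-nIL-1R1-/-, Stress-nIL-1R1-/-). The Stress pools were defeated by a CD-1 aggressor for 2 h on each of 6 nights and collected 14 h later, and controls were left undisturbed. Because the 3 mice of a pool cannot be separated, RSD was tested over 4 pairs of pools that by design differ in RSD alone. Diet and genotype rest on 2 pools a side.

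After nuclei over 20% mitochondrial counts were removed, 56834 nuclei remained, 5858 to 8474 per pool, and 0 cell barcodes were shared between pools. Depth differed between pools. The median nucleus held 598 and 628 unique transcripts (UMIs) in the 2 PLX5622 pools, 1325.5 in Stress-Vehicle and 2563 in Control-Vehicle. In the genotype experiment it held 3098.5 in Con-IL-1R1+/+, 3218.5 in Stress-IL-1R1+/+, 5012 in Con-nIL-1R1-/- and 2580 in Stress-nIL-1R1-/-. A total of 19 classes of nuclei were named from marker genes, without the receptor genes, and 11 of them had at least 20 nuclei in every pool and could be tested. Other clusters were left unnamed, unevenly over the pools. The one led by Malat1, whose best score was for CA2/3, held 1303 and 1078 nuclei in the PLX5622 pools and 126 and 251 in the vehicle pools. The one led by Ebf2 held 1914 nuclei, 1517 of them from Con-IL-1R1+/+. Of the markers fixed for DG, CA2/3 and microglia, 5 of 6 stood above 10 CPM (counts scaled to 1000000 UMIs) in each. Slc17a6 was at 0.555 to 3.11 CPM in the DG clusters and at 58.6 CPM in Fn1 excitatory neurons. The latter held only 1 to 3 Il1r1 UMIs in each genotype pool, too few to read the deletion there. In DG granule neurons Il1r1 was at 61.5 and 29.7 CPM in the IL-1R1+/+ pools and at 11.5 and 9.28 CPM in the nIL-1R1-/- pools. Its log2 fold change in DG was -2.13 (edgeR adjusted p = 3e-05). That was the 1 call for genotype among 11812 genes in DG (0.00847%), and without Con-nIL-1R1-/- its adjusted p was 0.0835. Classes such as upper-layer excitatory neurons are named for markers of cortical layers.

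On the mouse genome GRCm39, Grm5 lies on the plus strand of chr7:87233376-87784594, Grm7 on the plus strand of chr6:110622542-111544191 and Grm8 on the minus strand of chr6:27275118-28135177. Grm3 (chr5:9534069-9776088), Grm4 (chr17:27641361-27740377) and Grm2 (chr9:106520294-106533870) all lie on the minus strand. The spans differ widely, from 13.6 kb for Grm2 through 99.0 kb for Grm4, 242 kb for Grm3 and 551 kb for Grm5 to 860.1 kb for Grm8 and 922 kb for Grm7. Nuclear RNA is rich in unspliced transcripts, so levels of different receptors were compared only per kb of span, and CPM was used to compare 1 receptor between classes.

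Each receptor gene had its own distribution over the classes with at least 20 nuclei in 4 or more pools. Among these, Grm5 and Grm7 stood above 300 CPM in every class, Grm3 was highest in oligodendrocytes, Grm8 in Fn1 and deep-layer excitatory neurons, Grm4 in upper-layer excitatory neurons and those marked by Slc17a6, and Grm2 in DG. Per kb of span, the highest mean in a class with at least 4 pools was 7.83 ± 1.81 CPM per kb (SD, n = 8 pools) for Grm5 in Fn1 excitatory neurons. Grm3 reached 6.29 ± 0.670 CPM per kb in oligodendrocytes, Grm4 3.13 ± 0.403 in Slc17a6 excitatory neurons (n = 4), Grm7 3.00 ± 0.4997 in upper-layer excitatory neurons, Grm2 2.64 ± 0.719 in DG and Grm8 1.11 ± 0.256 in Fn1 excitatory neurons. The levels by class are a description over the 8 pools, and 1 class is called higher than the next only where the mean of their differences within pools was larger than its SD.

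**Figure D1:**
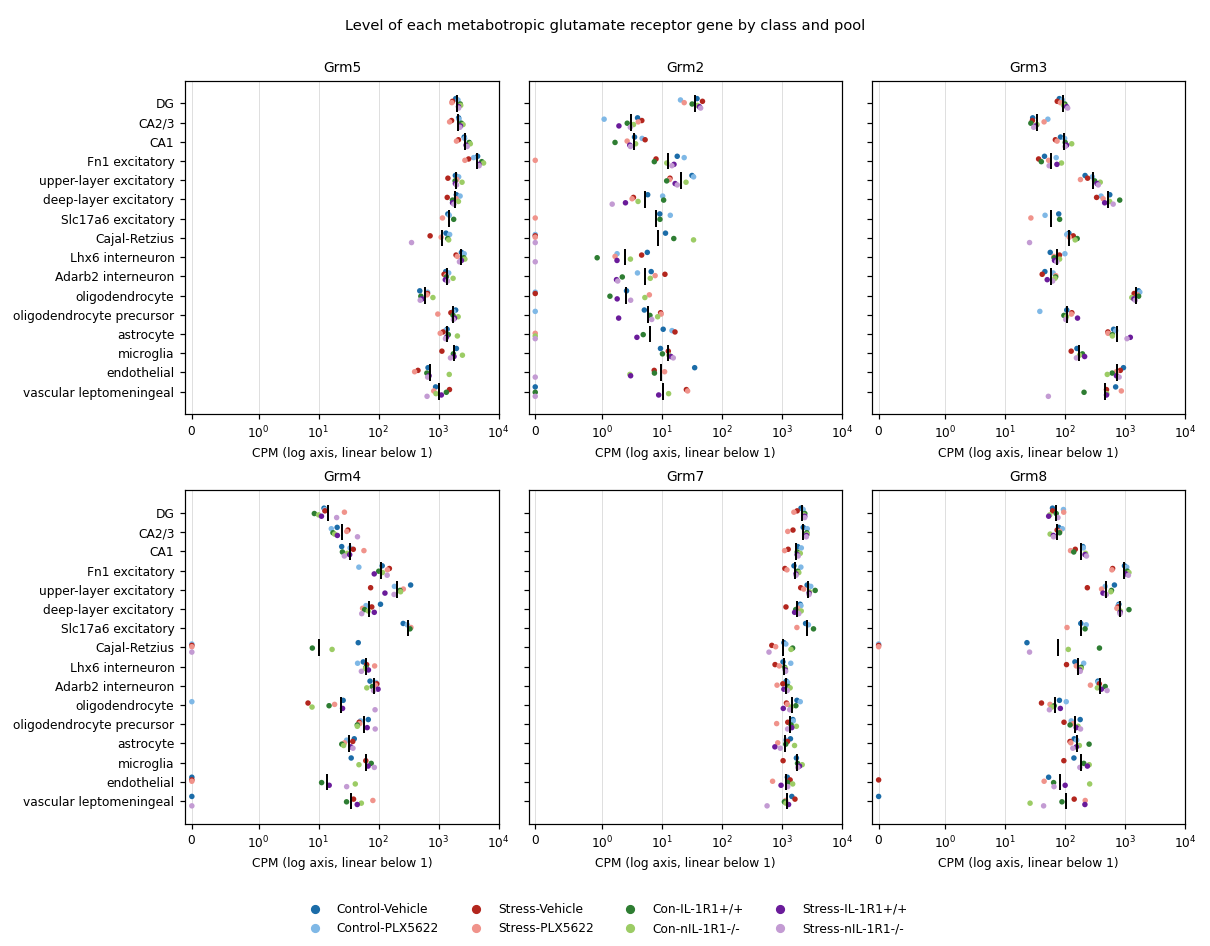
CPM of each receptor gene (log axis, linear below 1 CPM) in the classes that had at least 20 nuclei in 4 or more pools, with 1 point per pool and a black line at the mean. Grm5 and Grm7 sat above 300 CPM in every class shown, Grm3 peaked at 1523 CPM in oligodendrocytes, and Grm2 reached 35.9 CPM in DG.

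Grm5, the group I receptor, was highest in Fn1 excitatory neurons at 4316 ± 995 CPM (SD, n = 8 pools). CA1 followed at 2751 ± 488 CPM, then Lhx6 interneurons at 2385 ± 291 CPM and CA2/3 at 2132 ± 360.4 CPM, and each of these steps was larger than its spread. The Fn1 class exceeded CA1 in 8 of 8 pools, and CA1 exceeded Lhx6 interneurons in 7 of 8. CA2/3, DG (2044 ± 255 CPM), upper-layer (1968 ± 289 CPM) and deep-layer excitatory neurons (1873 ± 281 CPM) could not be ordered beyond their spread. Adarb2 interneurons, the class with Vip cells, were lower at 1396 ± 159 CPM. The lowest of the tested classes was oligodendrocytes, at 596 ± 112 CPM.

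Grm2, a group II receptor known from the granule cells whose axons form the mossy fibres, was a low-count gene in these nuclei. In DG it was at 38.5 and 47.4 CPM in the control and stress pool on vehicle chow and at 20.4 and 23.5 CPM in those on PLX5622, at 31.8 and 42.2 CPM in the IL-1R1+/+ pair, and at 39.1 and 44.1 CPM in the nIL-1R1-/- pair. The 2 PLX5622 pools were thus the lowest, from 16 and 27 UMIs. DG exceeded upper-layer excitatory neurons (20.5 ± 8.55 CPM) in 7 of 8 pools. Microglia, the next of the classes seen in at least 4 pools, were at 12.5 CPM. Neuronal RNA in microglia would by itself give 9.38 CPM, on the scale described below, and 5 of 6 pools were above theirs. Fn1 excitatory neurons were nearly as high, at 0.916 against 0.922 CPM per kb in microglia. Thinned to 500 UMIs per nucleus, 1.75% of DG nuclei held a Grm2 UMI (7.94% unthinned, median 1580 UMIs).

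Inside the upper-layer class Grm2 was not even. The smaller cluster, led by Fermt1, a gene of integrin adhesion, held 47.5 CPM of Grm2 over its 353 nuclei, and the larger one, led by Igfn1, 11.9 CPM over 2457 nuclei. In the 4 pools with at least 20 nuclei of both, the Fermt1 cluster stood at 65.3, 37.0, 54.6 and 50.5 CPM and the Igfn1 cluster at 14.2, 10.1, 10.9 and 10.2 CPM. Grm4 split the same way, at 516 against 83.6 CPM. In those 4 pools Grm4 was at 348.9 to 808 CPM in the Fermt1 cluster and at 74.8 to 101 CPM in the Igfn1 cluster, with no overlap.

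Grm3, the second group II receptor, was the member with the most marked non-neuronal level. Oligodendrocytes held 1523 ± 162 CPM (SD, n = 8 pools, 1281 to 1742), above astrocytes in 8 of 8 pools. Astrocytes (731 ± 261 CPM), endothelial nuclei (724 ± 143 CPM, n = 7), deep-layer excitatory neurons (517 ± 151 CPM) and vascular leptomeningeal nuclei (466 ± 272 CPM, n = 7) followed and could not be ordered beyond their spread. Among neurons the deep-layer class was highest, upper-layer neurons reached 286 ± 72.1 CPM, and CA1 (94.1 ± 19.1 CPM), DG (91.4 ± 12.6 CPM) and CA2/3 (34.3 ± 8.76 CPM) were far lower. Within the oligodendrocyte lineage, precursors were at 107 ± 35.0 CPM. Thinned to 500 UMIs, 49.8% of oligodendrocytes and 33.7% of astrocytes held a Grm3 UMI, against 4.72% of oligodendrocyte precursors.

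The non-neuronal classes also held neuronal RNA, so a level there was read against it. Syt1, which encodes a synaptic vesicle protein of neurons, served as the scale. Over all pools it was at 1653 CPM in astrocytes, 2432 CPM in microglia and 531 and 892 CPM in the oligodendrocyte clusters. The deepest DG cluster held 2301 CPM of it. The level expected from neuronal RNA alone is the Syt1 level of the class times the ratio of receptor to Syt1 in all neuronal nuclei. Grm3 was 56.6 times that level in oligodendrocytes, 22.1 times in endothelial nuclei, 11.6 times in astrocytes and 8.91 times in vascular leptomeningeal nuclei, and above it in every pool of these 4 classes. Grm5, in contrast, was 1.13 times the level in astrocytes and 1.15 times in oligodendrocytes, above it in 7 of 8 pools of each. In microglia Grm5 was 0.987 times the level, above it in 3 of 6 pools. Its mean CPM in these classes was thus close to what the neuronal RNA there carries, though mostly above it in astrocytes and oligodendrocytes. In oligodendrocyte precursors Grm5 was 1.36 times the expected level, also above it in 7 of 8 pools.

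Among group III receptors, Grm7 in oligodendrocytes was 3.39 times the level expected from neuronal RNA, between 2.44 and 4.65 times over the pools. In endothelial nuclei Grm7 was 2.24 times it (1.46 to 3.62, n = 7). In astrocytes Grm7 was 1.10 times the level, above it in 7 of 8 pools, and in microglia 1.15 times, above it in 5 of 6. Grm8 was at 0.999 times in microglia and at 1.26 to 1.33 times in astrocytes, oligodendrocytes and endothelial nuclei, with pools on both sides of 1. Grm4 was 1.74 times it in oligodendrocyte precursors, above in 8 of 8 pools.

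**Figure D2:**
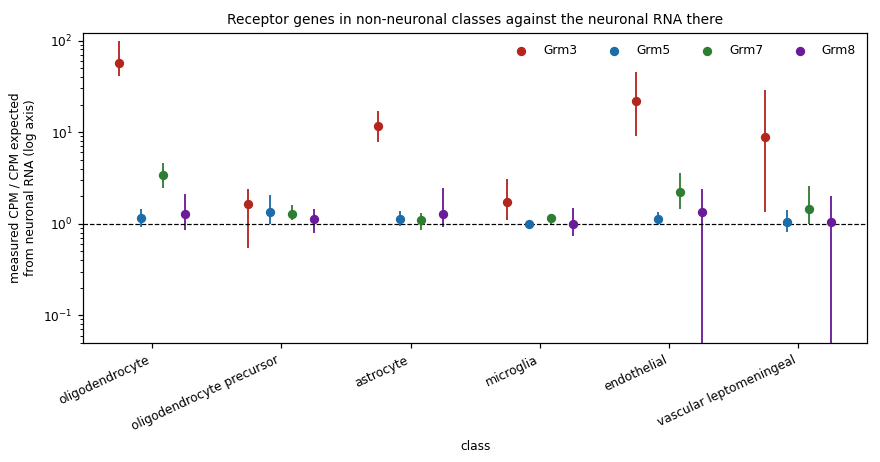
Measured CPM of 4 receptor genes in each non-neuronal class divided by the CPM expected from the neuronal RNA in that class (log axis). Points are means over pools and lines run from the lowest to the highest pool, with pools at 0 drawn at the lower edge. Grm3 stood at 56.6 in oligodendrocytes and 11.6 in astrocytes, Grm7 at 3.39 in oligodendrocytes, and Grm5 between 0.987 and 1.36 in every class.

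Grm4, a group III receptor known from cerebellar granule cells, was highest in nuclei marked by the granule-cell genes Fat2 and Gabra6. Only 2 pools held at least 20 of these nuclei, at 1239 CPM in Con-IL-1R1+/+ and 2039 CPM in Stress-nIL-1R1-/-. In the 1 pool with enough medium spiny nuclei, Stress-IL-1R1+/+, Grm4 was at 338 CPM. In the classes seen in at least 4 pools it was at 309.6 ± 39.9 CPM in Slc17a6 excitatory neurons (n = 4) and 204 ± 82.1 CPM in upper-layer neurons (n = 8), which were not told apart. Fn1 excitatory neurons (112 ± 34.3 CPM) and Adarb2 interneurons (83.4 ± 11.5 CPM) came next, and DG was at 14.3 ± 6.14 CPM.

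Grm7, known as a presynaptic receptor of low glutamate affinity, led in upper-layer excitatory neurons at 2764 ± 461 CPM (SD, n = 8 pools). Slc17a6 excitatory neurons (2590.4 ± 656 CPM, n = 4) came second, and the step was larger than its spread within the 4 shared pools. CA2/3 (2251 ± 551 CPM) and DG (2151 ± 312 CPM) were not separable, and CA1 was at 1722 ± 350.3 CPM. Interneurons were lower, with 1152 ± 168 CPM in Adarb2 and 1081 ± 188 CPM in Lhx6 interneurons. Outside the classes with at least 4 pools, medium spiny nuclei held 2783 CPM in their 1 pool, and Fat2 granule nuclei 36.5 and 428 CPM in their 2 pools.

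The Lhx6 class was not uniform in Grm7. The cluster led by Gna14, which encodes a G protein alpha subunit of the Gq family, held 1651 CPM, the one led by Hapln1, a matrix link protein gene, 895 CPM and the one led by Nxph2, a neurexophilin gene, 578 CPM. The Gna14 cluster was above the Nxph2 cluster in 8 of 8 pools, and over the pools it ran from 1299 to 2007 CPM against 506 to 1153 CPM. Grm8 followed the same order, at 272, 144 and 62.7 CPM, while Grm5 differed little between the 3 clusters (2459.7, 2300.1 and 2637 CPM).

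Grm8, a presynaptic group III receptor of high glutamate affinity, was led by Fn1 excitatory neurons at 950.4 ± 220.4 CPM and deep-layer excitatory neurons at 828 ± 135 CPM (SD, n = 8 pools), which were not told apart. Upper-layer neurons (478 ± 132 CPM) were below the deep-layer class in 8 of 8 pools, and Adarb2 interneurons were at 379 ± 73.3 CPM. DG (70.4 ± 16.1 CPM) and CA2/3 (72.9 ± 11.2 CPM) were as low as oligodendrocytes (67.6 CPM, between 40.0 and 103 CPM over the pools).

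CA1 stood between, at 182 ± 40.2 CPM, and 1 cluster carried most of that level. Its cluster led by Fras1, an extracellular matrix gene, held 608 CPM of Grm8 over 1231 nuclei and ran from 469.7 CPM in Stress-PLX5622 to 746 CPM in Stress-nIL-1R1-/-. The largest CA1 cluster, led by the uncharacterised gene 4921539H07Rik, held 44.0 CPM over 3587 nuclei and ran from 38.3 to 75.6 CPM. The pools of the 2 clusters did not overlap. Grm5 was similar in both, at 2794 and 3144 CPM. With control before stress, the Fras1 cluster made up 22.9 and 7.76% of CA1 nuclei in the vehicle pair, 6.55 and 2.23% in the PLX5622 pair, 13.1 and 17.9% in the IL-1R1+/+ pair and 20.1 and 17.2% in the nIL-1R1-/- pair. The Grm8 level of CA1 as a whole holds that share as well as the level inside each cluster.

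**Figure D3:**
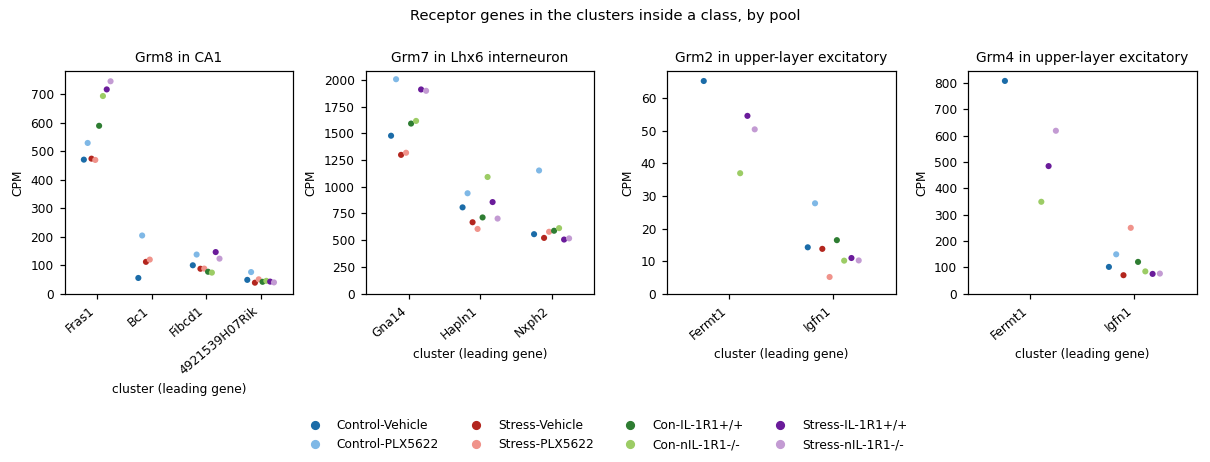
CPM of Grm8 in the CA1 clusters, of Grm7 in the Lhx6 interneuron clusters, and of Grm2 and Grm4 in the upper-layer clusters, with 1 point per pool of at least 20 nuclei. Each cluster is named by its leading gene. Grm8 was at 469.7 to 746 CPM in the Fras1 cluster and at most 204 CPM in every other CA1 cluster, and Grm7 was higher in the Gna14 than in the Nxph2 cluster in 8 of 8 pools.

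The genes with the pattern over classes most like each receptor were found by Pearson's r of log2(CPM + 1) over the 19 classes among 10146 genes. Grm5 was most like Gria3, an AMPA receptor subunit (r = 0.91), Shisa7 (0.90) and Celf5 (0.89). For Grm7 they were Vmn2r87 (0.91), Creg2 (0.90) and Elac2 (0.89), for Grm8 Nap1l1 (0.88), Rxfp1 (0.87) and Abcb9 (0.86), and for Grm4 Cdyl2 (0.91), Ppargc1b (0.86) and Cend1 (0.86). Grm3 was most like Sgk3 (0.81), Plin3 (0.76) and Pcmtd1 (0.76), and Grm2 like Aagab (0.75), Mtmr12 (0.73) and Rilpl1 (0.71). The classes come from the same 8 pools and share their depth, so these values describe likeness only.

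Next, RSD was compared with control in the 11 classes. Grm7 and Grm5 had a fold change below 0 in every tested class, Grm8 in 10 of 11, and Grm4 was above 0 in 8 of 10, but no receptor gene passed an adjusted p of 0.05 in any class. The direction turned in glia under other settings: with 15 principal components astrocyte Grm5 was at 0.94 and Grm7 at 0.30, with nuclei thinned to 500 UMIs astrocyte Grm7 was at 0.032 and oligodendrocyte Grm5 at 0.08, and without the nIL-1R1-/- pair oligodendrocyte Grm5 was at 0.15. All 58 tests of a member in a class that passed the filter on low counts (Grm2 passed in 4 classes, Grm4 in 10, the others in 11) thus gave 0 calls with edgeR and 0 with DESeq2. Over all genes and classes 214 of 98436 tests were called (0.217%). At an unadjusted p under 0.05 there were 21 of the 58 with edgeR, 19 of them lower, and 16 with DESeq2, against 10.7% of all tests. Of the 21, 9 were Grm7 and 5 Grm5. The classes come from the same 8 pools, so tests of 1 gene in several classes are not separate evidence. With no filter on low counts 5 tests of a member in a class were called, Grm7 in astrocytes, CA1 and CA2/3 and Grm4 in CA2/3 and upper-layer neurons, where 0.486% of all tests were. In what follows these p-values are given as they are, and values are described without a claim of change. In UMIs summed over a class, fewer copies per nucleus and a changed mix of nuclei inside the class cannot be told apart. For some classes below, levels inside single clusters are given beside the class values.

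Grm7 had the most values with a small unadjusted p. Its log2 fold change for RSD ran from -0.54 (SE 0.16) in astrocytes to -0.20 (SE 0.13) in DG, with a median of -0.41 over 11 classes, and the unadjusted p was under 0.05 in 9 of them. The smallest edgeR adjusted p was 0.128, in astrocytes. CA1 markers in that class moved with it: the summed CPM of 5 CA1 markers in astrocytes was 897, 912, 999.7 and 992 in Control-Vehicle, Control-PLX5622, Con-IL-1R1+/+ and Con-nIL-1R1-/- and 573, 616, 559 and 774 in their Stress partners. These sums did not overlap, and up to 2 of the 5 markers were at 0 in a pool. Markers of DG and of Lhx6 interneurons in astrocytes went both ways. The sums of 6 DG markers were 999.6, 1066, 1055 and 1020 CPM in the same controls and 965, 947, 1213 and 745 CPM under RSD. Those of 7 Lhx6 interneuron markers were 685, 662, 787 and 535 CPM in controls and 619, 743, 957 and 1033 CPM under RSD. Grm7 in astrocytes stood at 1.10 times the level expected from neuronal RNA alone. The part of neuronal RNA in its fold change was not tested. In oligodendrocytes Grm7 was at 1777, 2018, 1705 and 1418 CPM in Control-Vehicle, Control-PLX5622, Con-IL-1R1+/+ and Con-nIL-1R1-/-, and at 1188, 1228, 1052 and 1347 CPM in their Stress partners. The control and stress pools there did not overlap, and the fold change was -0.51 (SE 0.14, edgeR adjusted p = 0.368). Without the nIL-1R1-/- pair it was -0.68 with an edgeR adjusted p of 0.0392, where 117 of 88877 tests over all classes were called (0.132%). The log2 ratio of the pair left out was -0.07, against -0.58, -0.72 and -0.70 in the vehicle, PLX5622 and IL-1R1+/+ pairs. The CA1 markers in oligodendrocytes were at 2636.5, 3363, 3697 and 3159 CPM in the same controls and at 3017, 2277, 2534 and 2687 CPM under RSD, lower in 3 of 4 pairs. DG neurons held 428 to 616 CPM of the same markers, so these sums do not measure neuronal RNA alone either.

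In the principal neurons the difference in Grm7 lay mainly in the diet experiment. CA2/3 held 2262 CPM in Control-Vehicle and 1526 in Stress-Vehicle, and 2641 CPM in Control-PLX5622 and 1249 in Stress-PLX5622. The IL-1R1+/+ pair stood at 2594 and 2561 CPM and the nIL-1R1-/- pair at 2633 and 2545 CPM, so these 4 pools stood between 2545 and 2633 CPM. CA1 showed the same order, with 1829.8 and 1269 CPM in the vehicle pair, 2102 and 1107 CPM in the PLX5622 pair, 1798 and 1789 CPM in the IL-1R1+/+ pair and 2020.3 and 1863 CPM in the nIL-1R1-/- pair. Over the 11 classes the median log2 ratio of stress to control was -0.44 in the vehicle pair, -0.64 in the PLX5622 pair, -0.06 in the IL-1R1+/+ pair and -0.12 in the nIL-1R1-/- pair. Without the PLX5622 pair the median fold change was -0.25 in place of -0.41.

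The mix of clusters in these classes differed between pools, and between control and stress within the diet pairs. In CA2/3 the shallower of the 2 clusters led by Mndal (median 1120 UMIs, 1794 CPM of Grm7) rose from 23.7 to 68.6% of nuclei in the vehicle pair and from 72.6 to 87.2% in the PLX5622 pair, and was at 3.42 to 16.3% in the genotype pools. The deeper one (median 5475 UMIs) held 2742 CPM of Grm7. Within the deeper cluster Grm7 was at 2494 and 1882 CPM in the vehicle pair, 2711 and 1999.5 CPM in the PLX5622 pair, 2937 and 2717 CPM in the IL-1R1+/+ pair and 2908 and 2756 CPM in the nIL-1R1-/- pair, so each Stress pool was below its control there too. In CA1 the Bc1 cluster (median 413 UMIs, 1322 CPM of Grm7) went from 4.19 to 30.5% and from 39.8 to 63.0% in the diet pairs and was at 0.428 to 2.44% in the genotype pools. In the largest CA1 cluster Grm7 was at 1661 and 1245 CPM and at 1833 and 1254 CPM in the diet pairs, and at 1699.5 and 1684 CPM and at 1829 and 1745 CPM in the genotype pairs. In Control-Vehicle, as in the genotype pools, the largest clusters were the deeper Mndal one (45.0% of CA2/3) and 4921539H07Rik (42.8% of CA1). The part of the cluster shares in the class values was not tested.

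Grm5 was lower by a smaller amount. Its log2 fold change ran from -0.39 (SE 0.15) in Fn1 excitatory neurons to -0.08 in oligodendrocytes, with a median of -0.30, and the unadjusted p was under 0.05 in 5 of 11 classes. The smallest edgeR adjusted p was 0.251, in CA1. In CA1 Grm5 was at 2672, 2717, 3239 and 3381 CPM in Control-Vehicle, Control-PLX5622, Con-IL-1R1+/+ and Con-nIL-1R1-/-, and at 2144, 1987, 2869 and 2997 CPM in their Stress partners. Each Stress pool was below its own control, while the 2 groups overlapped because the genotype pools were higher throughout. The median ratio over classes was -0.30 in the vehicle pair, -0.34 in the PLX5622 pair, -0.06 in the IL-1R1+/+ pair and -0.26 in the nIL-1R1-/- pair, and it was below 0 in 10, 11, 7 and 11 of the 11 classes.

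Grm8 was lower in fewer classes. Upper-layer excitatory neurons had the lowest log2 fold change, -0.66 (SE 0.19, edgeR adjusted p = 0.178), with 658, 462, 587 and 573 CPM in Control-Vehicle, Control-PLX5622, Con-IL-1R1+/+ and Con-nIL-1R1-/- and 233, 402, 424 and 482 CPM in their Stress partners. Stress-Vehicle was the lowest pool, and the gap lay inside the Igfn1 cluster too, which held 694 CPM in Control-Vehicle and 230.2 CPM in Stress-Vehicle. The number of upper-layer nuclei differed widely, with 192, 284, 47 and 165 in the same controls and 746, 197, 565 and 614 in their Stress partners. Fn1 excitatory neurons (-0.41, SE 0.16) and astrocytes (-0.46, SE 0.20) were the other classes with an unadjusted p under 0.05. In DG the fold change was -0.00012 (SE 0.14), and in CA1, at -0.12 (SE 0.18), the pairs went apart, with log2 ratios of -0.42 (vehicle), -0.71 (PLX5622), 0.62 (IL-1R1+/+) and 0.05 (nIL-1R1-/-). The share of the Fras1 cluster in CA1 moved the same way, falling in the first 2 pairs and rising from 13.1 to 17.9% in the IL-1R1+/+ pair, and its part in the result was not tested.

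**Figure D4:**
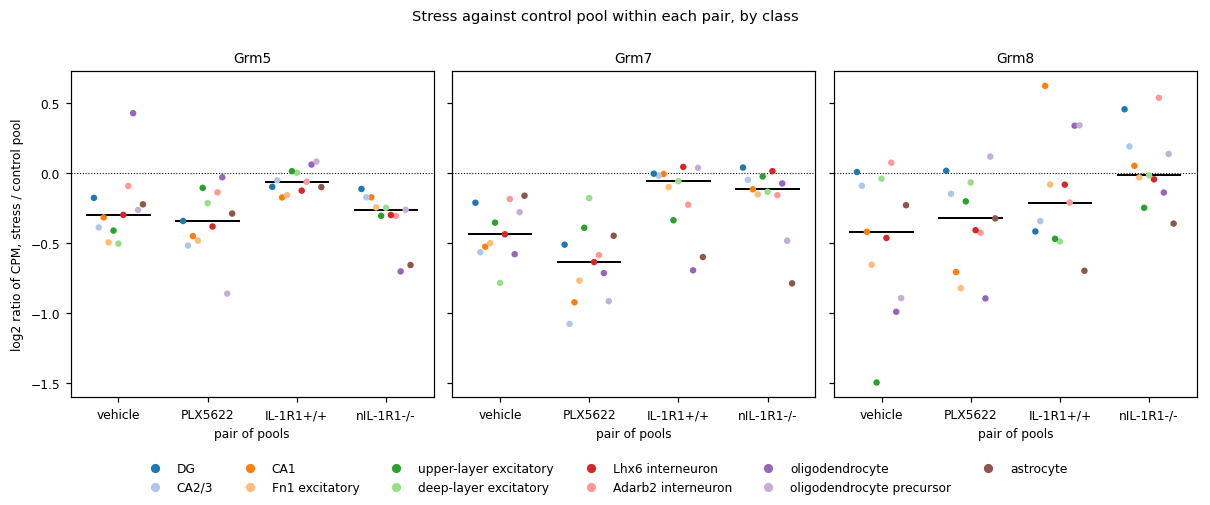
Log2 ratio of CPM between the stress and the control pool of each pair, for Grm5, Grm7 and Grm8, with 1 point per tested class and a black line at the median. For Grm7 the medians were -0.44, -0.64, -0.06 and -0.12 in the vehicle, PLX5622, IL-1R1+/+ and nIL-1R1-/- pairs.

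These 3 genes are long, and long genes as a group moved with RSD. Genes over 300 kb had a median log2 fold change between -0.05 (oligodendrocytes) and -0.17 (CA2/3), and genes up to 20 kb had one between 0.09 and 0.22, so the long genes were lower in 11 of 11 classes. Against the long genes of the same class, Grm7 was lower than most: the share of genes over 300 kb with a still lower value ran from 4.18% in oligodendrocytes to 27.0% in DG. For Grm5 that share ran from 8.77% in Fn1 excitatory neurons to 46.0% in oligodendrocytes. For Grm8 it ran from 4.94% in upper-layer neurons to 71.9% in Adarb2 interneurons. A fold change below 0 in all 11 classes was found for 264 of the 4451 genes tested in each (5.93%), and for 86 of 485 such genes over 300 kb (17.7%), so Grm5 and Grm7 share it with many long genes. The part of gene length in these values was not tested. Nor was that of depth, which was lower in Stress-Vehicle and in Stress-nIL-1R1-/- than in their controls.

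**Figure D5:**
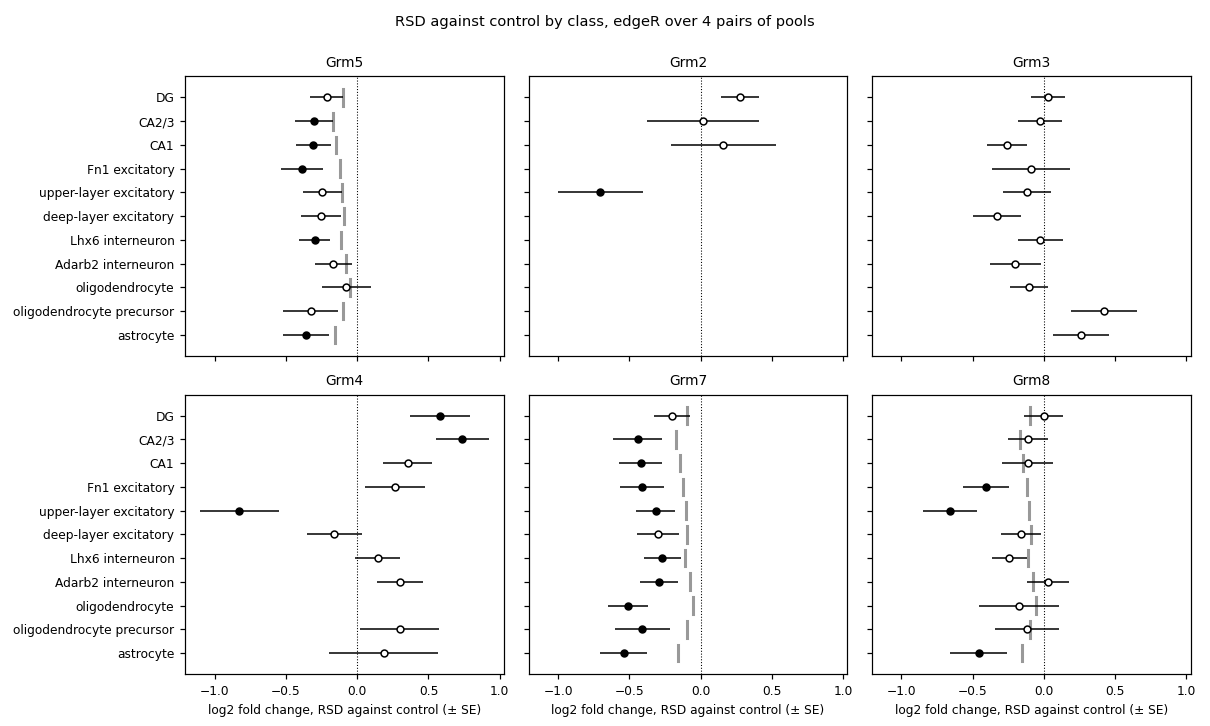
Log2 fold change of each receptor gene for RSD against control (± SE, edgeR over 4 pairs of pools) in the tested classes. Filled points have an unadjusted p under 0.05, open points do not, and grey bars give the median of genes over 300 kb for the 3 receptor genes of that length. Grm7 was below 0 in 11 of 11 classes and to the left of the grey bar in each.

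Grm4 went the other way in most classes. In CA2/3 it was at 20.4, 16.3, 17.4 and 18.6 CPM in Control-Vehicle, Control-PLX5622, Con-IL-1R1+/+ and Con-nIL-1R1-/-, and at 30.8, 29.5, 20.6 and 44.6 CPM in their Stress partners. The groups did not overlap, though the highest control and the lowest stress pool were 20.4 and 20.6 CPM, and the log2 fold change was 0.74 (SE 0.19, edgeR adjusted p = 0.105, the smallest of any member). In DG Grm4 was 0.58 higher (SE 0.21, adjusted p = 0.268), at 8.51 to 12.7 CPM in controls and 11.2 to 27.0 CPM under RSD, with overlap. Both are low levels for this gene.

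In 2 classes Grm4 was below 0. Deep-layer neurons were at -0.16 (SE 0.20), and upper-layer excitatory neurons had a log2 fold change of -0.83 for Grm4 (SE 0.28, edgeR adjusted p = 0.267) and of -0.70 for Grm2 (SE 0.30, adjusted p = 0.471). Grm4 was at 342, 184, 228 and 233 CPM in the control pools and 73.7, 259, 128 and 181 CPM in the Stress pools. The Fermt1 cluster, where both genes are high, made up 24.5, 4.93, 25.5 and 53.9% of the class in Control-Vehicle, Control-PLX5622, Con-IL-1R1+/+ and Con-nIL-1R1-/- and 0.670, 4.06, 11.9 and 18.1% in their Stress partners. Inside the Igfn1 cluster alone Grm4 was at 101, 149, 120.4 and 84.4 CPM in controls and 69.9, 249.9, 74.8 and 76.0 CPM under RSD. The part of that cluster's share in the values of the class was not tested.

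Of the remaining group II values, Grm2 in DG was 0.28 higher under RSD (SE 0.13, edgeR adjusted p = 0.424). Grm3 had no unadjusted p under 0.05, with a median log2 fold change of -0.09 between -0.33 in deep-layer neurons and 0.42 in oligodendrocyte precursors. Astrocyte Grm3 differed between the experiments. It was at 636 and 512 CPM in the vehicle pair and 691 and 514 CPM in the PLX5622 pair, but at 608 and 1209.6 CPM in the IL-1R1+/+ pair and 609 and 1066 CPM in the nIL-1R1-/- pair, control first. The log2 ratios within pairs were -0.31, -0.43, 0.99 and 0.81, so the 2 experiments went in opposite directions and the fold change over all 4 pairs was 0.26 (SE 0.20).

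The PLX5622 diet was then set against vehicle. No receptor gene passed an adjusted p of 0.05 (0 of 58 with edgeR and with DESeq2, where 0.0406% of all tests were called), and 7 of 58 had an unadjusted p under 0.05 with edgeR and 4 with DESeq2, against 5.25% of all tests. Grm2 in DG had the smallest adjusted p, 0.236, at a log2 fold change of -0.94 (SE 0.24). It was at 20.4 and 23.5 CPM in the 2 PLX5622 pools and at 38.5 and 47.4 CPM in the vehicle pools, both of which lay above. Grm8 in DG was 0.65 higher (SE 0.20, edgeR adjusted p = 0.360), at 93.0 and 94.0 CPM against 61.1 and 61.4 CPM. DG nuclei sat in different clusters by diet: the Mmel1 cluster (median 529 UMIs, with 30.04 CPM of Grm2 and 77.7 CPM of Grm8 over all pools) made up 70.5 and 77.7% of DG in the PLX5622 pools and 18.2 and 42.8% in the vehicle pools. Within it Grm2 was at 20.4 and 30.6 CPM, from 7 and 19 UMIs, against 28.4 and 45.3 CPM, from 6 and 18 UMIs, and Grm8 at 108 and 95.0 CPM against 42.6 and 47.8 CPM. The part of the cluster shares was not tested.

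With 15 principal components in the clustering, which put other nuclei into CA1, Grm3, Grm4, Grm7 and Grm8 were called as higher there, where 3.18% of CA1 genes were called. That CA1 class held a cluster led by Mmel1, the leading gene of a DG cluster in the main clustering. It made up 42.5 and 42.1% of the class in the PLX5622 pools and 7.11 and 11.6% in the vehicle pools. The part of this cluster in the calls was not tested.

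The other 5 values under 0.05 were all higher in PLX5622, and included Grm8 (0.57, SE 0.19) and Grm7 (0.42, SE 0.18) in Lhx6 interneurons and Grm3 in CA2/3 (0.80, SE 0.24). Oligodendrocyte and CA1 markers in DG were also higher in each PLX5622 pool than in its vehicle partner. The summed CPM of 6 oligodendrocyte markers in DG was 611 and 547 in these pools against 441 and 460 in the vehicle pools, and that of 5 CA1 markers was 616 and 496 against 540 and 462. In Lhx6 interneurons the oligodendrocyte markers were at 352 and 195 CPM against 179 and 182 CPM, while 1 of 2 sums of astrocyte markers there was lower in PLX5622 (184 and 132 CPM against 92.0 and 151 CPM). In CA2/3 the oligodendrocyte markers were at 313 and 299 CPM against 231 and 224 CPM. DG markers there were at 326 and 288 CPM against 278 and 261.5 CPM. Lhx6 interneuron markers were at 83.8 and 79.2 CPM against 58.4 and 72.4 CPM. Astrocyte markers went both ways, at 306 and 330 CPM against 311 and 291 CPM. The CA1 markers in CA2/3 were at 657 and 369 CPM against 665 and 419 CPM, lower in both. Their part in the values was not tested. CA2/3 held 573 and 569 nuclei in the PLX5622 pools, while the unnamed Malat1 cluster held 1303 and 1078. The part of the nuclei left unnamed in the CA2/3 values was not tested. With 1 pool per diet and stress state, the diet cannot be told apart from the lower depth of both PLX5622 pools.

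For genotype, nIL-1R1-/- against IL-1R1+/+, no receptor gene was called by edgeR or DESeq2 (0 of 58, with 0.00813% of all tests called). Only Grm4 in CA2/3 had an unadjusted p under 0.05 with edgeR (0.61, SE 0.24, edgeR adjusted p = 0.9999), and 0 had one with DESeq2, against 2.26% of all tests. Its pools were at 18.6 and 44.6 CPM in nIL-1R1-/- and at 17.4 and 20.6 CPM in IL-1R1+/+, so the difference lay in Stress-nIL-1R1-/-. Grm5 was above 0 in 10 of 11 classes with a median of 0.11, which was found in the control pools (median log2 ratio 0.28) more than under RSD (0.01). How many other genes were above 0 in as many classes was not counted. Depth went the same way, with a median of 5012 UMIs in Con-nIL-1R1-/- against 3098.5 in Con-IL-1R1+/+. In the Stress pools it was 2580 against 3218.5 UMIs. The part of depth in these values was not tested. Grm7 had a median of 0.04 and Grm8 one of 0.01.

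Last, genes that act with these receptors were read from the same fits, as 3 lists of 11 genes of the Gq arm (G proteins, phospholipase C, protein kinase C and channels), 11 of the Gi/o arm (G proteins, adenylyl cyclases and GIRK channels) and 18 scaffold partners and regulators such as the Homer and Shank genes. Under RSD 1 gene of each list was called in 1 class, where 0.217% of all tests were called. For diet and genotype there were 0 calls, where 0.0406 and 0.00813% of all tests were called. Over the classes 66 of 118 RSD tests of the Gq arm, 65 of 117 of the Gi/o arm and 62 of 161 of the partners were below 0. Of all genes 48.1 to 51.5% were below 0 in a class, with a median between -0.01 and 0.02. The class medians of the partners ran from -0.12 to 0.39, those of the Gq arm from -0.28 to 0.11 and those of the Gi/o arm from -0.17 to 0.07.

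Trpc5, a cation channel opened downstream of Gq, fell in Lhx6 interneurons, from 247, 259, 249 and 300.2 CPM in Control-Vehicle, Control-PLX5622, Con-IL-1R1+/+ and Con-nIL-1R1-/- to 173, 170.4, 178 and 149.6 CPM in their Stress partners. The pools did not overlap, and the log2 fold change was -0.68 (SE 0.12, edgeR adjusted p = 0.0212), where 11 of 11392 genes were called in the class (0.0966%). Adcy8, a calcium-stimulated adenylyl cyclase, fell in upper-layer neurons by 0.97 on the log2 scale (SE 0.19, edgeR adjusted p = 0.0288), from 370.4, 429, 627 and 446 CPM to 170.2, 375, 200.3 and 279 CPM, where 0.412% of genes were called. Stress-PLX5622 overlapped the controls there. The highest control value, 627 CPM in Con-IL-1R1+/+, came from 157 UMIs in 47 nuclei. The share of the Fermt1 cluster in this class was lower in each Stress pool than in its control, and its part in Adcy8 was not tested.

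Shank1, a scaffold that links Grm5 through Homer to the postsynaptic density, rose in deep-layer neurons by 0.60 on the log2 scale (SE 0.15, edgeR adjusted p = 0.0422), from 581, 582, 355 and 518 CPM to 1037, 844, 616 and 639.7 CPM, where 1.06% of genes were called. The pools did not overlap. These 3 calls rested on few pools. Without the vehicle pair the edgeR adjusted p was 0.129 for Trpc5, 0.113 for Adcy8 and 0.307 for Shank1, and without the nIL-1R1-/- pair it was 0.0662, 0.374 and 0.124. Without the PLX5622 pair it was 0.0866 for Trpc5 and 0.0552 for Shank1, and without the IL-1R1+/+ pair 0.0581 for Adcy8 and 0.167 for Shank1, while the direction held in each. Fits with no term for the pair called none of them.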

How the data were processed

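The authors made single-nucleus libraries of mouse hippocampus with split-pool barcoding (Parse Biosciences), and aligned the reads to mm39 with the Parse pipeline. The study describes more sublibraries than the 4 used here, each of which holds nuclei of all 8 pools. The deposited values are whole-number counts of UMIs per nucleus and gene with no normalization. Whether intronic reads were counted is not given in the sources used here. The submitters' processing notes also name Seurat 4.1.1.

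Each nucleus took its pool from the pool name of its table. Nuclei over 20% mitochondrial counts were left out (516 of 57350), and the others were clustered (scanpy 1.11.5, 2000 variable genes without the receptor and pathway genes, 30 principal components, leidenalg 0.10.2) into 43 clusters, which were named from markers. Coordinates come from GENCODE vM39, in which 56017 of 56748 gene identifiers were found. CPM is the count scaled to 1000000 UMIs of the class and pool. Pool totals ran from 7534594 to 58081835 UMIs, so counting error is largest in both PLX5622 pools. Shares of nuclei and counting intervals (exact, 95%) cover counting error only.

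UMIs were summed per class and pool and tested with edgeR 4.0.16 (TMM, filterByExpr, quasi-likelihood) with a term for each pair of pools and 1 for stress, which left 3 residual degrees of freedom, and Benjamini-Hochberg adjustment over all genes of a class. DESeq2 1.42.0 was an alternative, as were its size factors, no filter on low counts, thinning to 500 UMIs per nucleus, 15 principal components, a limit of 5% mitochondrial counts, removal of the 6% of nuclei per pool with the highest Scrublet scores (left to its own threshold, Scrublet marked 737 to 1631 nuclei in 3 pools and no more than 2 in each of the other 5), leaving out pools, and no term for the pair. The pairs are set by the design (same diet or genotype). Deviations of the 2 pools of a pair from their group means correlated at r = 0.0052 to 0.275 over the 44 combinations of pair and class, and 30 were over 0.1. The scripts were tested on simulated data. There a true log2 change of 1 under RSD was called for 60% of changed genes in DG counts and 44% in oligodendrocyte precursor counts. Smaller changes were not simulated. In fits with the pair term, p-values measure the spread of the stress difference between pairs of pools. The pair term takes up other differences between pairs, so for diet and genotype the p-values hold no spread between pools of the same condition.

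The rule for named genes took all 6 members, pathway genes past an adjusted p of 0.05, the 3 most alike genes of each member, Il1r1 and the leading genes of clusters. Members and lists were chosen with earlier results of these data known. The receptors' protein sequences were not used here.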

Additional observations from a re-analysis of the deposited data

Results flagged for a closer look

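Of 132 groups of 4 control or 4 stress pools, 1 member and class each, 4 held a pool far from the others by Dixon's test, where chance flags about 1 in 20. Grm7 in CA2/3 was at 2262 CPM in Control-Vehicle (14405 UMIs), below the 2594 to 2641 CPM of the other control pools. Grm8 in Adarb2 interneurons was at 461 CPM in Con-IL-1R1+/+ (422 UMIs), above 342 to 352 CPM in the others. Grm3 in oligodendrocyte precursors was at 37.6 CPM in Control-PLX5622, from 3 UMIs, and Grm2 in CA1 at 5.25 CPM in Stress-Vehicle, from 13 UMIs.

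In 4 of 132 comparisons of a member and class between the 2 pairs of 1 experiment, stress went one way in the first and the other way in the second, each with a counting interval that left out 0. All 4 were in the genotype experiment, and the difference itself was not tested, since each side is 1 pair of pools. The PLX5622 pools held the fewest UMIs (7651910 and 7534594). Counting error is largest there, so such a flag is harder to reach in the diet experiment. How many other genes meet this rule was not counted. Grm3 in deep-layer neurons had a log2 ratio of stress to control of -0.83 (-1.02 to -0.64) in the IL-1R1+/+ pair and of 0.19 (0.07 to 0.32) in the nIL-1R1-/- pair. Grm3 in oligodendrocytes was at -0.26 and 0.19. Grm8 was at -0.21 and 0.54 in Adarb2 interneurons and at -0.42 and 0.46 in DG.

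Outside the named classes, Grm7 was above its highest mean in a class with at least 4 pools (2764 CPM in upper-layer neurons) in 3 clusters that were left unnamed. The Gm49906 and Kcnh8 clusters scored nearly as high for another class as for their best one, and the Cpa6 cluster had more markers of another class among its leading genes. The cluster led by Cpa6 held 3284 CPM (2491 to 3536 over the pools), the one led by Gm49906 3166 CPM (2110.2 to 3427) and the one led by Kcnh8 3002 CPM (2150.0 to 3541).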

How the results depend on the processing

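Counts of calls moved with the settings as follows. Under RSD the 0 calls of members became 5 with no filter on low counts (0.486% of all tests called). They became 0 to 1 when a pair was left out (0.112 to 0.34%). The 3 calls of pathway genes became 1 with 15 principal components (0.445% of all tests called), 6 with DESeq2 (0.312%), 14 with no filter (0.486%), 1 when thinned (0.163%), 0 with no term for the replicate pairs (0.0295%) and 0 to 4 when a pair was left out (0.112 to 0.34%). For PLX5622 the 0 calls of members became 4 with 15 principal components (0.54% of all tests called) and 0 to 1 when a pool was left out (Grm4 in upper-layer neurons without Control-Vehicle), and those of pathway genes 2, 1 with no filter, and 0 to 2. For genotype members and pathway genes stayed at 0 calls in every setting run. The fit with no term for the replicate pairs called 0 members in each comparison and moved the RSD calls over all genes from 214 to 26. With 15 principal components only 8 of the 11 classes could be fitted, and astrocyte Grm5 and Grm7 under RSD were at 0.94 and 0.30 in place of values below 0. When thinned, astrocyte Grm7 was at 0.032. The cause was not tested. Mean Grm4 in Slc17a6 excitatory neurons was 350.4 CPM when thinned. Over the 29 member results with an unadjusted p under 0.05, 328 of 331 alternative values kept their direction. The alternatives refit nuclei of the same pools, and the results were picked by their p-values, so this count is no separate support. The lowest depth, in the PLX5622 pools, limits Grm2 and Grm4 most.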

Other observations

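Clusters inside CA2/3 and DG also differed in the receptor genes, which took no part in the clustering. In CA2/3 the smallest cluster, led by Fyb2 (456 nuclei), held 1473 CPM of Grm7, against 2742 CPM in the largest, led by Mndal (2189 nuclei). It had the lowest Grm7 of the 4 CA2/3 clusters in 7 of the 7 pools with at least 20 of its nuclei, between 966 and 1548 CPM. Grm5 went the other way, at 2704 CPM in the Fyb2 cluster, and was the highest of the 4 clusters in 6 of 7 pools. In DG the cluster led by Gm6999 (2277 nuclei) held 147 CPM of Grm3 and 103 CPM of Grm8, and the other DG clusters held 67.0 to 80.8 CPM and 43.5 to 77.7 CPM. Each gene was highest in the Gm6999 cluster in 7 of 8 pools. The levels are a description, with no test.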
